A study of Mus musculus with 4 samples.

Results

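The 35 genes described here encode the fibrous and mineralised extracellular matrix and the enzymes that build it: fibrillar collagens, collagens VI and XII, matrix glycoproteins, collagen crosslinking and processing factors, small proteoglycans, bone matrix proteins, osteoblast transcription factors and mineral enzymes, and a pair of contractile proteins used as marks of myofibroblasts and mural cells. The rule that selects them goes by name alone and uses no measured value, although the families themselves were chosen with earlier results of these data known. They come out of 32285 genes in the deposited matrices. At least 1 unique molecular identifier (UMI, 1 captured mRNA molecule) in kept cells was present for 35 of them in both growth plate libraries and in the vehicle ganglion library, and for 33 in the 1NMPP1 ganglion library, where Bglap2 and Sp7 had 0.

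The study measured single-cell RNA in mice 7 days after injury of the growth plate (physis), the cartilage disc at which long bones lengthen. All animals, vehicle groups included, carried the same altered receptor kinase of sensory neurons, engineered so that 1NMPP1, a small molecule, can block it. The treated groups received 1NMPP1 by intraperitoneal injection at 17 µg/g from a 5 mM solution 48 h and 2 h before surgery, and then in the drinking water at 40 µM, and the vehicle groups received DMSO. There were 4 groups of 1 library each: the distal femur around the injured growth plate with vehicle or 1NMPP1, released by sequential collagenase digestions, and lumbar dorsal root ganglia (DRG, the clusters of sensory neuron cell bodies beside the spinal cord) of the injected side with vehicle or 1NMPP1. The labels do not say how many animals were pooled for a library. There is 1 library per group, so no difference between treatments has a replicate check, no test across libraries was possible, and the 95% intervals below are exact counting intervals that cover counting error only.

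Type I collagen, a triple helix of the Col1a1 and Col1a2 chains, is the main protein of bone, tendon and scar, and it is assembled with types III and V into fibrils that lysyl oxidases crosslink and small proteoglycans space. Osteoblasts, the bone-forming cells, are specified by the transcription factors Runx2 and Sp7 and load this scaffold with mineral with the help of alkaline phosphatase, while hypertrophic chondrocytes of the growth plate share part of that programme before bone replaces them. In nerves and ganglia the same fibrous genes mark the fibroblasts of the connective tissue sheaths.

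The 4 libraries held 9560, 11807, 3675 and 2612 barcodes (growth plate vehicle and 1NMPP1, ganglion vehicle and 1NMPP1) with 102693014, 139703885, 57303894 and 32791945 UMIs. Between 4 and 40 barcodes were shared by a pair of libraries. Filters and doublet removal left 8667, 10551, 2878 and 2172 cells, of which only 170, 101, 1717 and 829 were not blood cells. Cells were clustered without the 35 genes and named from other markers, which left 18 stromal cells in the growth plate vehicle library and 24 in the 1NMPP1 library, 89 and 38 chondrocyte-like cells, 115 and 120 ganglion fibroblast-like cells, 46 and 17 mural-like cells, 293 and 256 myelinating and 81 and 13 non-myelinating Schwann-like cells. The libraries also differed in the sex of their cells, and the treatment cannot be told apart from this difference: 1372 cells were called female and 4308 male in the growth plate vehicle library against 4122 and 2612 in the 1NMPP1 library, and in the ganglia the counts were 577 and 1314 against 1033 and 380. Barcodes that went against the labelled tissue were present in the vehicle ganglion library, where 59 scored as chondrocyte-like and 10 as osteoblast-like, with 7.31% and 13.05% of their UMIs from the set, against 0 and 0 in the 1NMPP1 ganglion library. They were kept apart from every ganglion class compared here. Among growth plate stromal cells 2 were female and 11 male with vehicle, against 12 and 3 with 1NMPP1.

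The 35 genes together took a far larger part of the transcriptome in the skeletal and fibrous cells than in any other class. In growth plate stroma they were 13.3% of UMIs in the vehicle library and 22.4% in the 1NMPP1 library. Within the stroma the share was highest in a cluster named osteoblast-like, at 25.8% and 33.3%, while marrow stromal-like cells stood at 1.71% and 1.93%. Between them lay an unnamed cluster, at 10.4% and 11.2%, whose tendon and mural markers tied. It is labelled the Postn-Col3a1 cluster here after genes of the set. Its leading genes outside the set were Rgs5, Aspn, Thbs4, Cthrc1 and Fstl1. Chondrocyte-like cells had 3.59% and 4.24%, and an unnamed cluster led by Spp1 and Chad, with chondrocyte markers, had 8.62% and 12.7%. In the ganglion libraries the share was 5.49% and 5.60% in fibroblasts, 1.43% and 1.54% in mural cells, 0.914% and 1.05% in non-myelinating and 0.526% and 0.584% in myelinating Schwann cells. In B cells, which make none of these matrix proteins, it was 0.0130% and 0.0133% in the growth plate libraries, the level taken here as the background from free RNA.

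**Figure D1:**
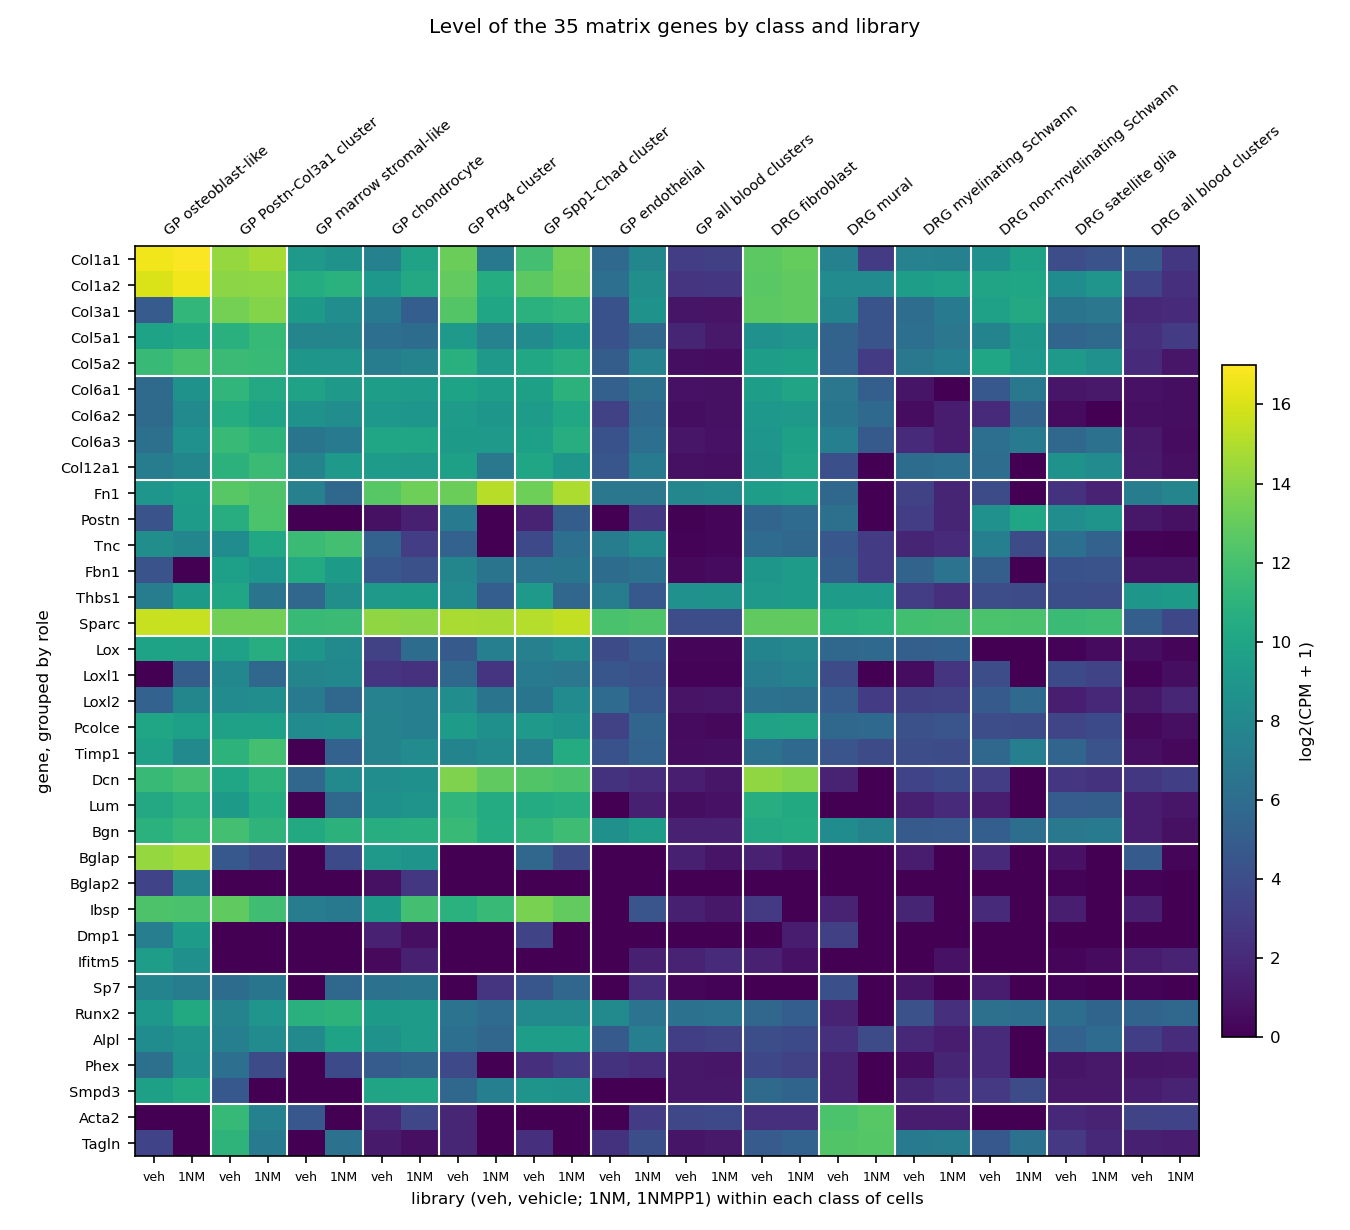
Level of the 35 genes as log2(CPM + 1), CPM being UMIs of the gene per 1000000 UMIs of the class, for each class of cells (grouped columns) in its vehicle and its 1NMPP1 library; white lines separate gene roles. The osteoblast-like and Postn-Col3a1 columns and the ganglion fibroblast columns are bright across most collagens and proteoglycans, the bone matrix genes are bright in the osteoblast-like columns, and Acta2 and Tagln are bright in the mural columns.

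Growth plate stroma gave the comparison that bears most directly on bone and scar matrix after the injury. Of the 35 genes, all of which had at least 20 UMIs in this class, 11 were 2-fold or more higher in the 1NMPP1 library and 8 were 2-fold or more lower, where 8.32% of the 6321 genes measured as well were that much higher and 13.1% that much lower. Higher genes lay among type I collagen, the small proteoglycans Dcn and Lum, the bone matrix proteins and the osteoblast factors and mineral enzymes. Lower genes lay among collagen VI, fibronectin, fibrillin, the crosslinking enzyme Loxl1 and the contractile pair. The median log2 ratio of 1NMPP1 over vehicle was 0.20 over the 35 genes and -0.18 over all genes. All of these values rest on 18 and 24 barcodes, and 19 genes past 2-fold became 17 when the barcode with the most UMIs of a gene was left out in each library, an alternative chosen after seeing the data. Of the 19, 15 stayed and Bglap2 had no value, while Tnc (1.26) and Ibsp (1.44) came to pass 2-fold. Within the 11 and 3 male-called cells Col1a1 was at -0.86, Col1a2 at -0.78, Bglap at -4.26, Smpd3 at -3.66 and the collagen VI chains at 0.48, 0.51 and 0.29, all opposite to the pooled direction. Within the 2 and 12 female-called cells the opposite direction was seen for Acta2 (3.47), Tagln (3.15), Fn1 (0.30), Fbn1 (0.21), Dcn (-0.15) and Lum (-0.92). Bglap2, Dmp1 and Phex were 2-fold or more higher under every alternative that gave them a value.

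Among the fibrillar collagens, Col1a1, the alpha 1 chain of type I collagen, had 37803 CPM (16249 UMIs) in the vehicle and 79346 CPM (40387 UMIs) in the 1NMPP1 library, a log2 ratio of 1.07 (1.04 to 1.10). Col1a2, its partner chain, had 27059 and 62945 CPM, a log2 ratio of 1.22 (1.19 to 1.25). Both chains of type I collagen were thus about equally displaced towards the 1NMPP1 library, and both were under 2-fold, at 0.67 and 0.56, without the barcode richest in each. The type III chain Col3a1, typical of loose and healing connective tissue, went the other way, with 7370 and 5483 CPM and a log2 ratio of -0.43 (-0.50 to -0.35). The type V chains, which set fibril width, stayed close, at 1403 and 1422 CPM for Col5a1 and at 2773 and 3316 CPM for Col5a2.

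Collagen VI, a beaded filament that links cells to the surrounding fibrils, was lower in the 1NMPP1 stroma in each of its 3 chains. Col6a1 had 1680 and 672 CPM, a log2 ratio of -1.32 (-1.51 to -1.13), Col6a2 had 1031 and 454 CPM (-1.18) and Col6a3 had 1875 and 811 CPM (-1.21). The 3 chains thus differed by much the same amount, and without the richest barcodes their ratios were -1.49, -1.19 and -1.14. Col12a1, a collagen that decorates fibril surfaces, was at 1319 and 1088 CPM.

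The matrix glycoproteins split. Fn1 (fibronectin, the first scaffold of a wound) had 4199 CPM with vehicle and 1764 CPM with 1NMPP1, a log2 ratio of -1.25 (-1.37 to -1.13). Fbn1 (fibrillin, the core of elastic microfibrils) had 637 and 228 CPM, a ratio of -1.48 (-1.81 to -1.17). Thbs1 (thrombospondin, an activator of TGF-beta) was at 754 and 428 CPM, but its ratio of -0.81 became 0.34 without the richest barcodes. Postn (periostin) and Tnc (tenascin C), matricellular proteins of periosteum and healing tissue, were higher in the 1NMPP1 library without reaching 2-fold, at 1010 and 1676 CPM and at 591 and 1026 CPM, and without the richest barcodes their ratios were 0.37 and 1.26. Sparc (osteonectin), a collagen-binding protein abundant in bone, was at 18898 and 31676 CPM, a ratio of 0.75 (0.71 to 0.78).

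Crosslinking and processing factors differed less. Lox, the main lysyl oxidase, had 847 and 973 CPM, Loxl2 219 and 226 CPM, Pcolce, which speeds removal of the procollagen tail, 821 and 729 CPM, and Timp1, an inhibitor of matrix proteases, 1547 and 1224 CPM. Loxl1, the oxidase associated with elastic fibres, was the only one of the 5 past 2-fold, with 78 and 35 UMIs and a log2 ratio of -1.39 (-2.02 to -0.81). Among the small proteoglycans, Dcn (decorin) had 1401 and 2811 CPM and Lum (lumican) 696 and 1507 CPM, log2 ratios of 1.00 (0.87 to 1.15) and 1.11 (0.92 to 1.31), whereas Bgn (biglycan), also a proteoglycan of bone, was at 3134 and 2415 CPM. Both decorin and lumican stayed past 2-fold without their richest barcodes, at 1.26 and 1.29.

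The bone matrix proteins include osteocalcin, which mice encode in neighbouring copies. Their coding sequences are shown because they limit how a short read can be assigned. The coding span, introns included, is chr3:88383635-88384415 for Bglap and chr3:88377870-88378650 for Bglap2. Both genes lie on the minus strand of GRCm38 with 4 exons in GENCODE, and the capitals mark the 4 of 288 coding bases at which they differ.
Bglap: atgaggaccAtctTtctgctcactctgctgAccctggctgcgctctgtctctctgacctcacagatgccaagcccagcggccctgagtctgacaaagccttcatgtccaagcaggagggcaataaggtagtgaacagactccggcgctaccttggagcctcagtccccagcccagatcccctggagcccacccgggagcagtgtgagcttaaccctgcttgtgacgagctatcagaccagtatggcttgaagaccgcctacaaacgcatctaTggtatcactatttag
Bglap2: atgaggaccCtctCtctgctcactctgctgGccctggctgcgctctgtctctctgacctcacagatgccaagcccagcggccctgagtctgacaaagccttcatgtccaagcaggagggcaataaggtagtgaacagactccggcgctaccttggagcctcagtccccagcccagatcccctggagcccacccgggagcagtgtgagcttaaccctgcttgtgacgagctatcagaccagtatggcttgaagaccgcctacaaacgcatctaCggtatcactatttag
The coding sequences were 98.6% identical and the last 100 bases of the transcripts, where 3' libraries place most reads, were identical at 100 of 100 positions, so UMIs could be given to 1 copy only by reads that reach a differing base, and the split between the copies is uncertain.

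Bglap had 2125 UMIs (4944 CPM) in the vehicle stroma and 7572 UMIs (14876 CPM) in the 1NMPP1 stroma, a log2 ratio of 1.59 (1.52 to 1.66). It was concentrated in few cells: 1 barcode of 64461 UMIs held 6116 of the 7572 UMIs, and 1 vehicle barcode of 38321 UMIs held 1724 of the 2125. Without these barcodes the ratio was 1.68, which again rested mainly on single cells. The next richest barcodes held 1283 Bglap UMIs with 1NMPP1 and 311 with vehicle. Bglap was seen together with Col1a1 in 5 of 18 vehicle cells and 14 of 24 1NMPP1 cells. Bglap2 had 1 UMI with vehicle and 69 with 1NMPP1, a ratio of 5.29 (3.34 to 11.19), and 63 of the 69 were in the barcode richest in Bglap. Ibsp (bone sialoprotein, a nucleator of mineral) had 6065 and 3519 CPM, a ratio of -0.79 (-0.87 to -0.70). That direction came from 1 vehicle barcode of 26487 UMIs in the Postn-Col3a1 cluster, which held 2106 of the 2607 vehicle UMIs, and without the richest barcode of each library the ratio was 1.44. Dmp1, a protein of osteocytes and mineralising osteoblasts, had 16 and 187 UMIs, a ratio of 3.26 (2.57 to 4.14). Ifitm5, a membrane protein of osteoblasts, was at 174 and 212 CPM, a ratio of 0.28 whose interval (-0.16 to 0.73) includes 0.

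Of the osteoblast transcription factors and mineral enzymes, 4 of 5 were 2-fold or more higher in the 1NMPP1 stroma. Runx2, the factor without which no bone forms, had 426 and 1175 CPM, a log2 ratio of 1.46 (1.22 to 1.71). Alpl, the phosphatase that frees phosphate for mineral, had 205 and 475 CPM, a ratio of 1.21 (0.86 to 1.58). Phex, a peptidase that regulates phosphate and mineral, had 29 and 117 UMIs, a ratio of 1.75 (1.17 to 2.41). These 3 stayed past 2-fold without the richest barcodes, at 1.43, 1.45 and 1.45. Smpd3, a sphingomyelinase needed for mineralisation, had 89 and 381 UMIs, a ratio of 1.85 that was 0.05 without them, since 1 barcode held 341 of the 381. Sp7 (osterix), downstream of Runx2, had 39 and 59 UMIs, a ratio of 0.35 with an interval of -0.25 to 0.98.

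The Bglap promoter is printed because Bglap and Runx2 were both higher in the 1NMPP1 stroma. It is the 250 bases before the gene start in RefSeq on GRCm38.p6, chr3:88384467-88384716 on the minus strand, and the capitals mark the core letters recognised by the RUNX family, ACCACA or ACCGCA on either strand, found at -132 from the gene start.
Bglap promoter: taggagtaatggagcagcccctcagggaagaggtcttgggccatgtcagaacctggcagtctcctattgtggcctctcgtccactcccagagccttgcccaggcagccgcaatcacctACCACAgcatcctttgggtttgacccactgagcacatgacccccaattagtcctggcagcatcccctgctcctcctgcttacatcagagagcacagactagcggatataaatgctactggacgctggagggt
Of the 21 genes of the set with a promoter in the table, 3 held these letters in the same window (Bglap, Dmp1 and Runx2), against 20.9% of 27025 genes, and the match says nothing of binding.

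Acta2 (smooth muscle actin) and Tagln (transgelin), the contractile proteins of myofibroblasts and vessel walls, gave the largest differences on the lower side of the stroma. Acta2 had 778 UMIs (1810 CPM) with vehicle and 25 UMIs (49.1 CPM) with 1NMPP1, a log2 ratio of -5.18 (-5.84 to -4.63), and Tagln 612 and 23 UMIs, a ratio of -4.95 (-5.65 to -4.38). A single vehicle barcode of 66766 UMIs held 619 of the Acta2 UMIs (79.6%) and 550 of the Tagln UMIs (89.9%), another held 124 and 61, and both genes were seen together in 2 of 18 and 2 of 24 cells. Without the richest barcodes the ratios were -5.87 and -2.35. The 10 mural markers, none of which is Acta2 or Tagln, were detected at 9 of 10 in both libraries and summed to 1722 CPM with vehicle and 587 CPM with 1NMPP1, and their part in this difference was not tested. Neutrophil markers summed to 1659 and 4501 CPM in the same cells.

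**Figure D2:**
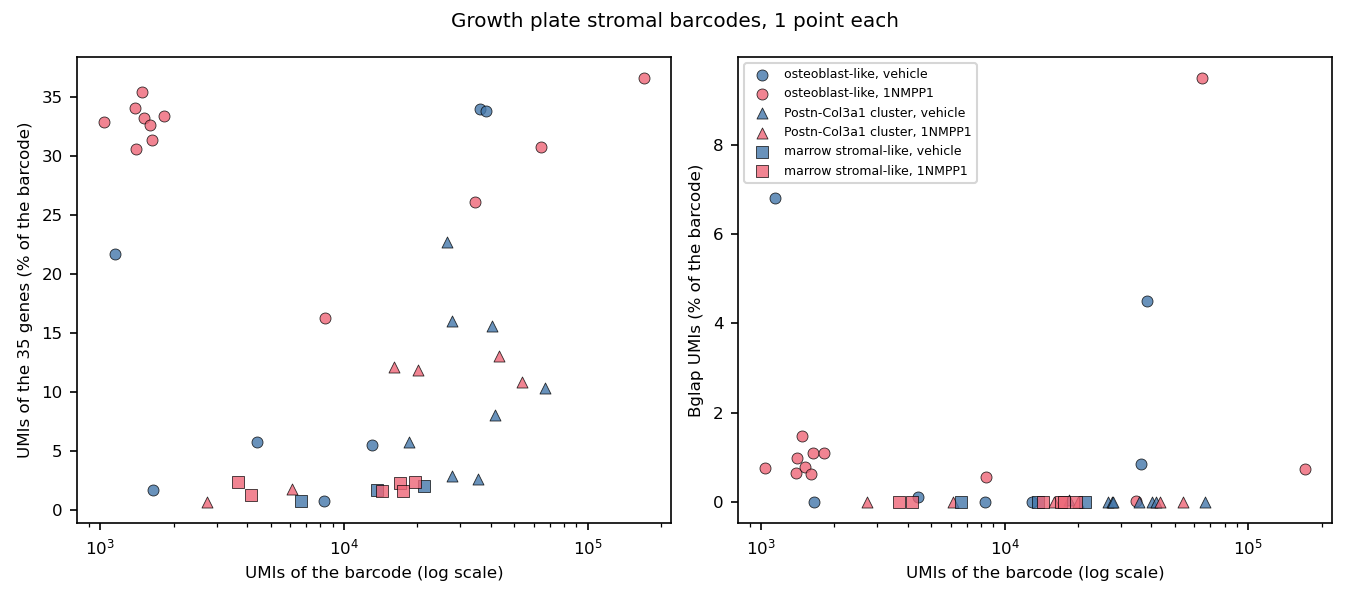
Every growth plate stromal barcode as 1 point, by its UMIs on a log axis (x) and, on the y axis, the percentage of its UMIs from the 35 genes (left) or from Bglap (right); colour gives the library and shape the cluster. The 8 osteoblast-like 1NMPP1 barcodes with 1039 to 1821 UMIs form a tight group at 30.6% to 35.4%, and the highest Bglap share belongs to 1 deep 1NMPP1 barcode of 64461 UMIs.

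The libraries also differed in which stromal cells they held. The osteoblast-like cluster held 7 of the 18 vehicle cells and 12 of the 24 1NMPP1 cells, and the Postn-Col3a1 cluster 8 and 6. Over the stroma, osteoblast markers (8 and 9 of 10 detected) summed to 998 and 2189 CPM. Of the 12 osteoblast-like 1NMPP1 barcodes, 8 had only 1039 to 1821 UMIs and gave the 35 genes 30.6% to 35.4% of them, with Col1a1 alone at 16.4% to 20.3%. The deepest 1NMPP1 barcode had 171005 UMIs, of which 36.6% were from the set, including 25812 of Col1a1 and 21627 of Col1a2. The deepest vehicle barcodes of the cluster, with 36337 and 38321 UMIs, were alike in composition, at 34.0% and 33.8%. One vehicle barcode was shallow and rich in these genes, with 1145 UMIs, 21.7% of them from the set and 78 of Bglap. The other vehicle barcodes of the cluster, with 1650, 4406, 8313 and 12991 UMIs, had only 1.64%, 5.74%, 0.734% and 5.51% from the set. The lowest 1NMPP1 barcode of the cluster was at 16.2%.

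Within the osteoblast-like cluster the libraries lay closer for the abundant genes. Col1a1 had 100627 CPM with vehicle and 124970 CPM with 1NMPP1, a log2 ratio of 0.31 (0.28 to 0.34), and Col1a2 had 66400 and 101251 CPM, a ratio of 0.61 (0.57 to 0.65). Sparc had 48651 and 49432 CPM, Bglap 20531 and 26064 CPM (0.34) and Ibsp 4798 and 4422 CPM (-0.12). Both type I collagen chains, past 2-fold over the whole stroma, were thus under 2-fold inside the cluster, 1.24-fold for Col1a1 and 1.52-fold for Col1a2. Dmp1, at 155 and 644 CPM (2.01), Runx2, at 533 and 1302 CPM (1.28), and Phex, at 77.5 and 393 CPM (2.26), remained 2-fold or more higher, while Timp1 was lower, at 843 and 262 CPM (-1.69). The 3 higher values rested on few barcodes. A barcode of 171005 UMIs, out of 290397 in the 1NMPP1 cluster, held 268 UMIs of Runx2 and 98 of Phex, where the next highest barcodes held 78 and 10. Dmp1 had 96 and 89 UMIs in the barcodes of 64461 and 171005 UMIs and at most 1 in any other 1NMPP1 barcode. Over the 31 genes with at least 20 UMIs here, 11 were 2-fold or more higher and 1 lower, where 13.8% and 12.8% of all genes were. Of the 11, Col3a1 (3 and 706 UMIs) and Postn (2 and 198 UMIs) rested on 1 barcode of 34672 UMIs that held 705 and 198 of them. Markers of other cell types also differed in this cluster: chondrocyte markers (4 and 9 of 10 detected) summed to 38.8 and 2166 CPM, marrow stromal markers (9 and 7 of 10) to 1396 and 420 CPM and fibroblast markers (4 and 5 of 10) to 4188 and 2848 CPM, and their part in the ratios was not tested.

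The Postn-Col3a1 cluster differed in other genes. Postn had 1516 and 4606 CPM, a log2 ratio of 1.60 (1.43 to 1.78), Tnc 309 and 1146 CPM (1.89), Lum 614 and 1491 CPM (1.28) and Runx2 193 and 464 CPM (1.26). On the lower side stood Acta2, at 2726 and 176 CPM (-3.93), Tagln, at 2144 and 120 CPM (-4.12), and Thbs1, at 1077 and 91.4 CPM (-3.51). Single barcodes supplied much of these values. A 1NMPP1 barcode of 53794 UMIs held 208 of 212 Lum UMIs, 421 of Postn and 45 of Runx2, where the next highest held 177 of Postn and 12 of Runx2. A vehicle barcode of 66766 UMIs held 264 UMIs of Thbs1, 619 of Acta2 and 550 of Tagln. Type I collagen barely differed, with 20505 and 28573 CPM for Col1a1 and 16555 and 17525 CPM for Col1a2, and Col3a1 was at 11016 and 14487 CPM. In all, 4 of 30 genes were 2-fold or more higher and 6 lower, in 8 and 6 cells, against 11.1% and 13.1% of all genes. The higher side thus lay near the share over all genes. In the same cells tendon markers (5 and 6 of 6 detected) summed to 884 and 4346 CPM, neutrophil markers (7 and 9 of 9) to 1252 and 9311 CPM and mural markers (9 and 8 of 10) to 2449 and 1442 CPM, and their part in these ratios was not tested.

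**Figure D3:**
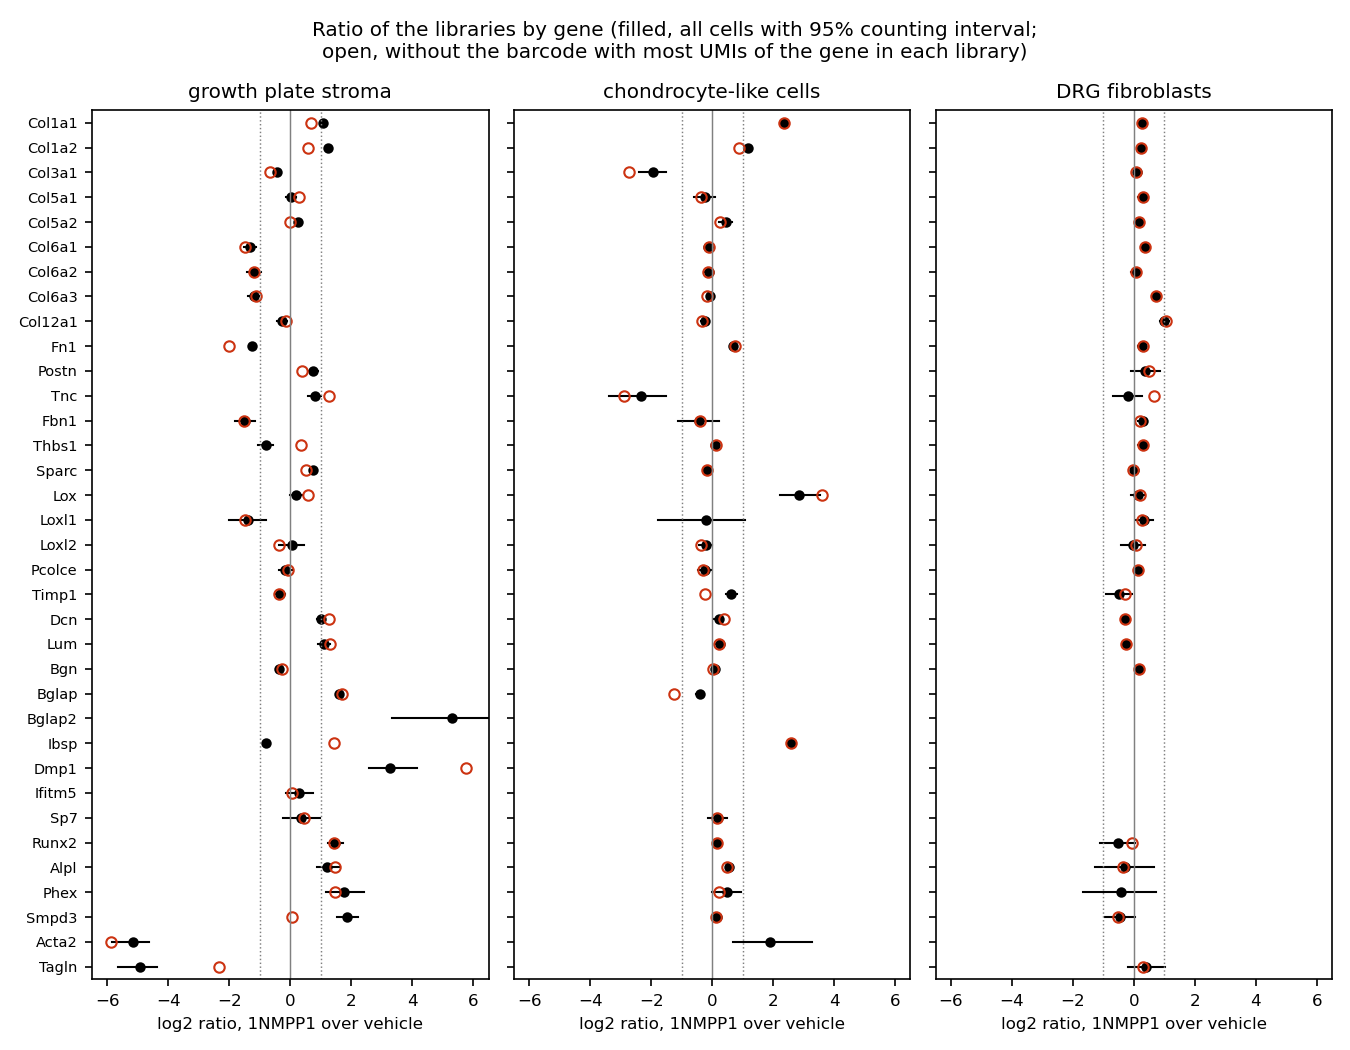
Log2 ratio of the 1NMPP1 over the vehicle library (x) for each gene with at least 20 UMIs (y) in growth plate stroma, chondrocyte-like cells and ganglion fibroblasts; filled points with bars are all cells with the 95% counting interval, open circles leave out each library's barcode richest in the gene, and dotted lines mark 2-fold. The stromal points scatter from -5.18 to 5.29, while the fibroblast points lie between -0.51 and 1.00.

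Chondrocyte-like cells, identified by Col2a1, Acan and other cartilage genes, expressed a different part of the set. Of the 30 genes with at least 20 UMIs, 5 were 2-fold or more higher in the 1NMPP1 library (Ibsp, Col1a1, Col1a2, Lox and Acta2) and 2 lower (Col3a1 and Tnc), where 2.99% and 5.15% of 10834 genes were. The median log2 ratio was 0.13 over the set and -0.03 over all genes. Synovial lining markers (4 and 3 of 5 detected) summed to 314 and 16.9 CPM in these cells, dendritic markers (4 and 4 of 7) to 244 and 32.0 CPM, granulocyte progenitor markers (5 and 5 of 5) to 570 and 1232 CPM and neutrophil markers (9 and 9 of 9) to 2191 and 3728 CPM, and their part in the ratios was not tested. The genes that chondrocytes expressed throughout lay close between the libraries: Sparc at 18929 and 17012 CPM, Bgn at 1547 and 1633 CPM, Smpd3 at 966 and 1075 CPM, Runx2 at 602 and 674 CPM, Alpl at 427 and 634 CPM and Sp7 at 82.5 and 93.4 CPM. The collagen VI chains, which form the pericellular capsule of chondrocytes, had ratios of -0.13, -0.10 and -0.08, in contrast to their values in stroma, and the difference between the classes was not tested.

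Bglap and Ibsp were the only bone matrix proteins with 20 UMIs in these cells. Ibsp had 1895 UMIs (625 CPM) in the vehicle and 6061 UMIs (3799 CPM) in the 1NMPP1 library, a log2 ratio of 2.60 (2.53 to 2.68). Only 11 of 89 and 10 of 38 cells held a UMI, and 1 cell held 61.7% of the vehicle and 63.2% of the 1NMPP1 UMIs. Leaving both out gave 2.58. Nearly all of it lay in the cluster led by Col10a1 and Hapln1, Col10a1 being the collagen of hypertrophic chondrocytes, where Ibsp was at 1430 CPM in 26 vehicle cells and 9657 CPM in 11 1NMPP1 cells (2.76). There 6 of the 26 and 5 of the 11 held a UMI of it, so the median cell of both libraries was at 0. In the same cluster Col1a1 was at 221 and 2104 CPM (3.25), Lox at 15.2 and 140 CPM (3.18) and Fn1 at 5008 and 14911 CPM (1.57), whereas Bglap was lower, at 787 and 137 CPM (-2.51). Osteocalcin and bone sialoprotein thus differed in opposite directions between the libraries in this cluster. Col1a1 there rested on few cells. With 1NMPP1, 634 and 680 of its UMIs lay in 1 cell each and the next highest cell held 3, and 1 vehicle cell held 251. When Scrublet scores were used to remove doublets from every cluster, an alternative chosen after seeing the data, Ibsp turned to -1.16 and Col1a1 to -0.38 over all chondrocyte-like cells. Within the 7 and 22 female-called cells Col1a1 was at -6.58 and Col1a2 at -1.32.

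Bglap over all chondrocyte-like cells was at 586 and 442 CPM, a log2 ratio of -0.41 (-0.54 to -0.28), and was found in 42 of 89 and 21 of 38 cells. It was seen with Sp7 in 34 of 89 and 17 of 38 cells, so the gene was not restricted to the cells named osteoblast-like. In the cluster led by Col2a1 and Col11a1, Bglap was at 582 and 938 CPM (0.69) and Fn1 at 9728 and 4898 CPM (-0.99), both opposite in sign to the Col10a1-Hapln1 cluster. The Bglap levels rested on single cells, with 351 UMIs in a vehicle cell and 399 in a 1NMPP1 cell. Without the richest cell of each library Bglap was at 68.8 and 329 CPM, a ratio of 2.25. The Fn1 direction depended on 1 vehicle cell with 3974 of the 6588 vehicle UMIs: without it the vehicle level was 4301 CPM, below the 1NMPP1 level, and without the richest cell of each library the ratio was -0.46. One 1NMPP1 barcode of 778 UMIs in this cluster held 89 UMIs of Col1a1 and 70 of Bglap. Col1a1 over the class had 525 and 1416 UMIs (2.36), found in 24 of 89 and 11 of 38 cells, and Lox 26 and 99 UMIs (2.83). Single 1NMPP1 cells of the Col10a1-Hapln1 cluster held 634 and 680 of the 1416 Col1a1 UMIs. The lower genes rested on single vehicle cells, with 223 of 381 Col3a1 UMIs and 98 of 119 Tnc UMIs in 1 cell each, although Col3a1 was at -2.72 and Tnc at -2.90 without the richest cells.

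**Figure D4:**
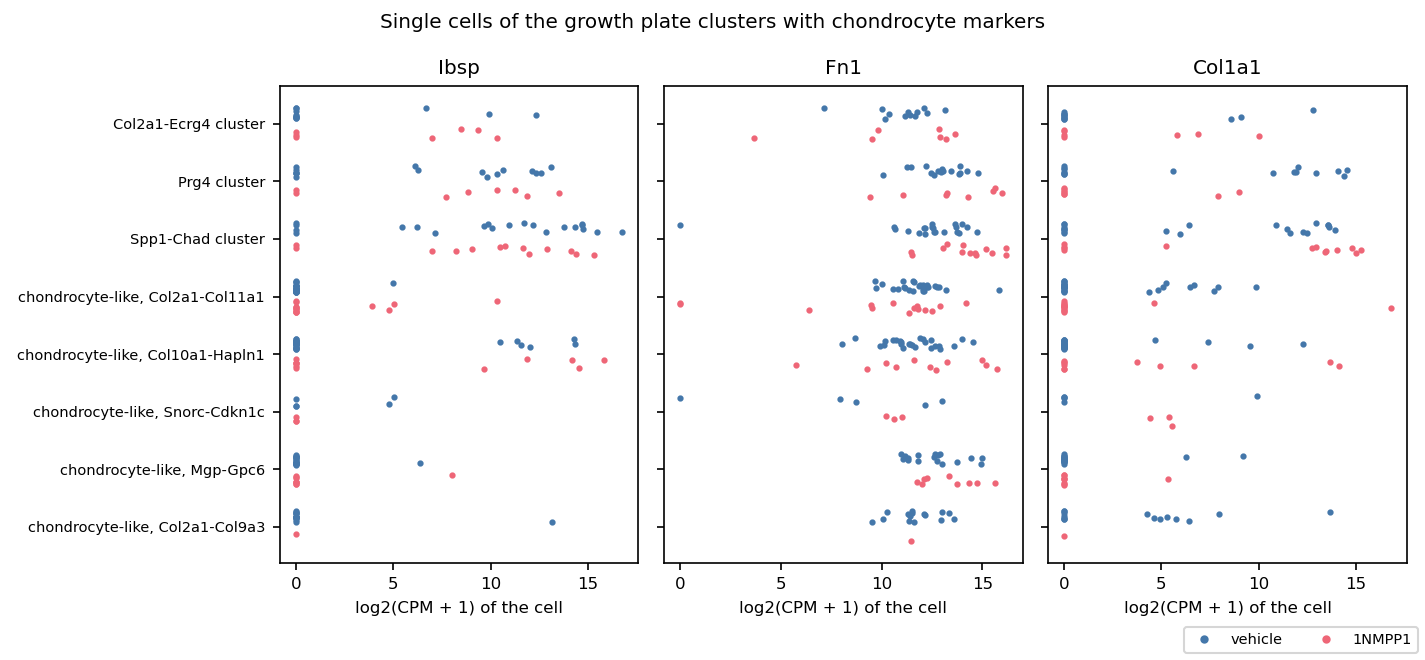
Every single cell of the growth plate clusters with chondrocyte markers (rows), with its log2(CPM + 1) of Ibsp, Fn1 and Col1a1 on the x axes, blue for vehicle and red for 1NMPP1; points are spread vertically within a row for visibility. In the Col10a1-Hapln1 row 6 of 26 vehicle and 5 of 11 1NMPP1 cells hold Ibsp and the rest sit at 0, and in the Prg4 row Col1a1 is seen in 9 of 16 vehicle and 2 of 8 1NMPP1 cells.

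Of the 3 clusters with chondrocyte markers that met no cell type's naming rule, 2 were past 2-fold in fibronectin. In the cluster led by Prg4 (lubricin, made by the surface cells of cartilage and joint lining), 16 vehicle and 8 1NMPP1 cells, Fn1 was at 9415 and 36622 CPM (1.96), and in the cluster led by Spp1 and Chad, 21 and 13 cells, at 9699 and 31008 CPM (1.68). In the cluster led by Col2a1 and Ecrg4, 12 and 7 cells, it was at 3179 and 5702 CPM, a ratio of 0.84 that is under 2-fold. Without the richest cell of each library the 3 ratios were 1.43, 1.45 and 0.55. The median cell had 8016 and 14993 CPM of Fn1 in the Prg4 cluster and 6046 and 21028 CPM in the Spp1-Chad cluster, although 1 cell held 45.6% and 40.7% of the 1NMPP1 UMIs. Fn1 was therefore 2-fold or more higher in the 1NMPP1 library in both of these clusters and in the Col10a1-Hapln1 cells, and 2-fold or more lower in stroma, and this contrast between classes was not tested. In the Prg4 cluster all 5 fibrillar collagens were 2-fold or more lower, from -1.65 for Col5a1 to -6.30 for Col1a1 (9166 and 114 CPM, detected in 9 of 16 and 2 of 8 cells), and Dcn was at 13441 and 7399 CPM (-0.86). In all, 3 of 26 genes were higher and 11 lower there, against 8.98% and 9.07% of all genes. In the Spp1-Chad cluster 7 of 28 genes were higher and 2 lower, against 6.08% and 8.41%. Its higher genes included Timp1, at 169 and 1396 CPM (3.04), Col1a1, at 3961 and 11235 CPM (1.50), and Col6a1, at 825 and 1908 CPM (1.21), Thbs1 was lower, at 555 and 48.1 CPM (-3.50), and Ibsp was at 12339 and 7667 CPM (-0.69).

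Ganglion fibroblasts, with 115 and 120 cells, lay close between the libraries in most of the set. Of 28 genes with at least 20 UMIs, 1 was 2-fold higher in the 1NMPP1 library and 0 were 2-fold lower, where 9.61% of 10362 genes differed by 2-fold or more in either direction, and the median was 0.15 against 0.10 over all genes. The higher gene was Col12a1, at 452 and 904 CPM, a log2 ratio of 1.00 (0.86 to 1.14) that stood at the 2-fold line and at 1.05 without the richest cells. The 5 fibrillar collagens lay between 0.11 and 0.30: Col1a1 at 6641 and 7933 CPM, Col1a2 at 6459 and 7538 CPM, Col3a1 at 6794 and 7314 CPM, Col5a1 at 384 and 474 CPM and Col5a2 at 713 and 802 CPM. Col6a3 was at 493 and 815 CPM (0.73), Fn1 at 720 and 862 CPM and Sparc at 7263 and 7266 CPM. Dcn and Lum were slightly lower, at 18202 and 14839 CPM (-0.29) and at 1566 and 1308 CPM (-0.26). The bone matrix proteins had too few UMIs for a ratio in these cells, 0 of 5 reaching 20 UMIs. Erythroid markers summed to 305 and 3644 CPM and perineurial markers to 280 and 657 CPM in this class, and their part in the ratios was not tested.

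The fibroblasts comprised a cluster led by Apod and Gpc3 (64 and 55 cells) and a cluster led by Igfbp5 and Igfbp6 (51 and 65 cells), and several genes of the set separated them in both libraries. Lum was at 2997 and 3107 CPM in the first and 89.4 and 70.8 CPM in the second, and Dcn at 25890 and 24286 CPM against 10270 and 8341 CPM. Bgn had the opposite distribution, at 433 and 440 CPM against 2072 and 2048 CPM. Col12a1 and Lox were features of the second cluster, at 898 and 1522 CPM and at 413 and 381 CPM. The Col12a1 ratio within that cluster was 0.76, under 2-fold, and the share of fibroblasts in it was larger in the 1NMPP1 library. Within the second cluster Runx2 and Smpd3 were lower in the 1NMPP1 than in the vehicle library, with 59 and 23 UMIs (-1.34) and 63 and 21 UMIs (-1.57). The share of all genes that much lower in this cluster is not given here. The vehicle and 1NMPP1 values of a gene differed less than the clusters did for Lum, Dcn and Bgn.

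Mural cells, the pericytes and smooth muscle of ganglion vessels, had their 10 markers detected in both libraries, at 9326 and 13131 CPM in sum. Their contractile genes lay close: Acta2 at 4721 and 6221 CPM (0.40, 0.29 to 0.51), in 30 of 46 and 15 of 17 cells, and Tagln at 5410 and 5849 CPM (0.11). The libraries drew on different subclusters, since one led by Rgs5 held 19 vehicle but 2 1NMPP1 cells, and in the other, led by Myh11, Acta2 was at 6305 and 6634 CPM and Tagln at 7187 and 6223 CPM. Of 17 genes with at least 20 UMIs, 0 were 2-fold higher and 7 lower, against 8.65% and 8.80% of all genes, and the median was -0.74 against 0.08. The lower genes were collagens and glycoproteins that a few vehicle cells supplied: 74 of 83 Col1a1 UMIs, 55 of 97 of Col3a1, 38 of 51 of Col6a1, 49 of 77 of Col6a3 and 18 of 24 of Fn1 came from 1 cell each, against 0 to 5 UMIs of these genes in the 1NMPP1 cells. Postn and Fn1 had 0 UMIs with 1NMPP1 and, with a floor of 3 UMIs, were at least 3.85-fold and 2.50-fold lower. With the richest cells left out, 3 genes remained past 2-fold, while Col1a1, Col5a2, Col6a1 and Fn1 fell under 20 UMIs and had no value. Genes spread over many cells did not share this direction, with Col1a2 at 296 and 291 CPM, Sparc at 1631 and 1880 CPM and Thbs1 at 680 and 676 CPM.

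Myelinating Schwann cells, which wrap single axons, had low levels of most of the set apart from Sparc, at 3663 and 3974 CPM, Col1a2, at 743 and 845 CPM, Col1a1, at 187 and 174 CPM, and Tagln, at 136 and 137 CPM. Of 18 genes with at least 20 UMIs, 1 was 2-fold higher and 2 were lower, against 5.62% and 2.63% of all genes. Fbn1 was the higher one, with 88 and 108 UMIs and a log2 ratio of 1.07 (0.65 to 1.50), spread over cells so that it was 1.10 without the richest. Col3a1, at 67.6 and 126 CPM (0.89), came next. Runx2, with 38 and 5 UMIs (-2.03), and Fn1, with 19 and 3 UMIs (-1.70, -4.28 to -0.12), were lower, and 17 of the 38 Runx2 UMIs were in 1 cell.

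Non-myelinating Schwann cells, which bundle thin axons, were few in the 1NMPP1 library (13 against 81 cells). The cluster was named from its leading genes, which include Cadm2 and Chl1, but its highest marker score was that of satellite glia, whose markers (9 and 9 of 9 detected) summed to 12910 and 8832 CPM against 5385 and 5146 CPM for the non-myelinating Schwann markers (8 and 7 of 8). Satellite glia also express Postn, and their part in the values was not tested. In this cluster 8 of 17 genes were 2-fold or more higher and 3 lower, against 12.0% and 9.61% of all genes. The better counted ones were Col1a1, with 244 and 63 UMIs (371 and 860 CPM, 1.22, 0.79 to 1.62), Postn, with 249 and 73 UMIs (1.40, 1.00 to 1.78), and Col5a1, with 133 and 37 UMIs (1.33, 0.75 to 1.85). Col5a2 went the other way, with 657 and 39 UMIs (-0.89), as did Tnc, with 106 and 1 UMI (-2.98, -8.88 to -1.05). Sparc was at 4717 and 4505 CPM. Of the 3 lower genes, Col12a1 (44 and 0 UMIs) was at least 1.63-fold lower and Fbn1 (23 and 0 UMIs) stayed within the floor, so only Tnc was past 2-fold on counts above 0.

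**Figure D5:**
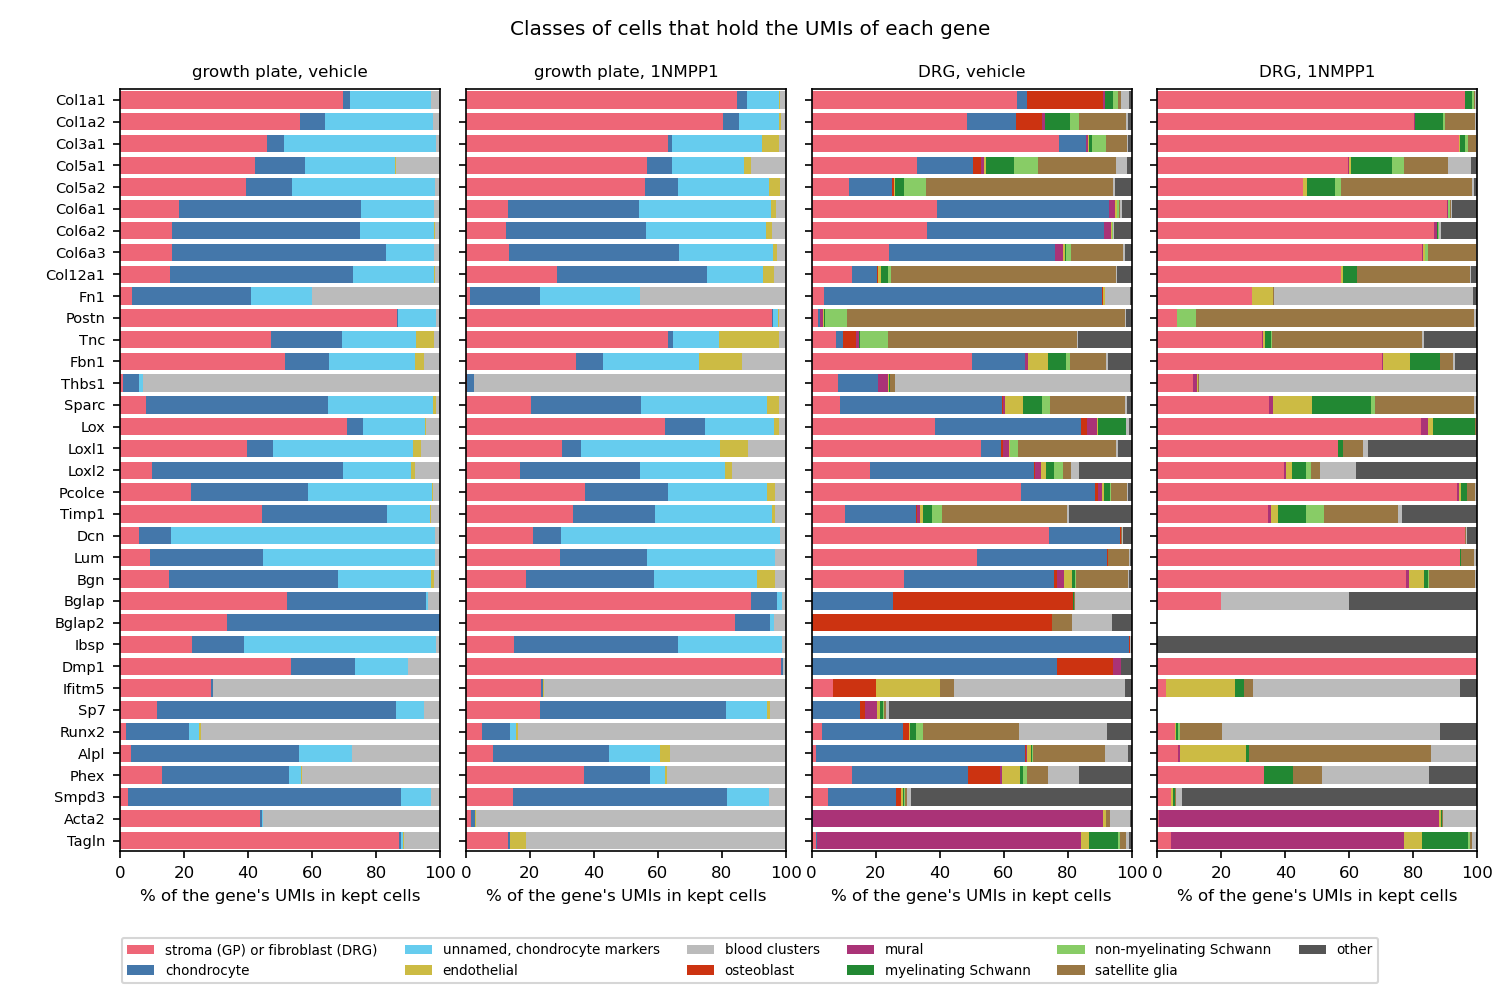
Percentage of each gene's UMIs in kept cells (x) that came from each class of cells (colours) in the 4 libraries (panels), with genes on the y axis. Stroma took 69.6% of Col1a1 in the growth plate vehicle and 84.8% in the 1NMPP1 library, ganglion fibroblasts 64.1% and 96.2%, and grey bars show that Thbs1 and Runx2 came mainly from blood cells in the growth plate libraries.

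The classes that supplied the UMIs differed from gene to gene. In the growth plate, stroma supplied 69.6% and 84.8% of Col1a1 and 86.5% and 95.6% of Postn. Bglap came from stroma (52.0%) and chondrocyte-like cells (43.5%) with vehicle, but from stroma (89.0%) with 1NMPP1, where chondrocyte-like cells supplied 8.3%. Smpd3 came mainly from chondrocyte-like cells, at 85.3% and 66.9%. These shares depended on single barcodes. Most stromal Bglap UMIs lay in a single barcode of each library, 1724 with vehicle and 6116 with 1NMPP1. Another 1NMPP1 stromal barcode held 341 UMIs of Smpd3, most of those in that stroma. The shares were not computed without these barcodes. Blood cells supplied 92.7% and 97.3% of Thbs1, 74.8% and 83.8% of Runx2 and 71.1% and 75.7% of Ifitm5. In the ganglia, fibroblasts supplied 74.1% and 96.0% of Dcn, mural cells 90.8% and 87.5% of Acta2, and satellite glia, the cells around sensory neuron bodies, 86.7% and 87.0% of Postn.

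Genes outside the set, from lists of related functions, were read in the same stroma. There, 8.32% of all genes with at least 20 UMIs were 2-fold or more higher and 13.1% lower. For these lists, values without the richest barcodes are not given. Collagen folding and processing enzymes lay at a median of -0.01 (1 of 14 higher and 2 lower by 2-fold), so they did not share the displacement of type I collagen, although the telopeptide hydroxylase Plod2 was at 398 and 821 CPM (1.04). Mineralisation genes had a median of 0.42, with 2 of 9 higher and 1 lower by 2-fold. Basement membrane genes had a median of -1.03, with 0 of 10 higher and 5 lower, and other matrix proteins -0.78, with 6 of 17 lower and 1 higher. Among matrix breakdown genes and inhibitors, 2 of 10 were higher and 3 lower, with Mmp13, a collagenase of hypertrophic cartilage and bone, at 365 and 794 CPM (1.12) and Timp3 at 1035 and 58.9 CPM (-4.11). In ganglion fibroblasts the largest difference in these lists was that of Eln (elastin), at 239 and 1021 CPM (2.09).

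Over 80 combinations of class and library, the genes outside the set whose log2(CPM + 1) followed the summed fibrous genes most closely were Serpinh1 (r = 0.90), the collagen chaperone, and Fkbp10 (0.88), Gli3 (0.88), Scarf2 (0.88) and Tcea3 (0.87). For the summed bone genes they were Srpx2 (0.83), Slitrk6 (0.82), Pitx1 (0.81), Mdfi (0.80) and Col11a2 (0.80). These correlations are descriptive, since classes of 1 library share its depth and free RNA.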

How the data were processed

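Single-cell RNA-seq (10x Chromium) of 4 libraries was used, 1 per group. The authors deposited filtered gene-by-barcode matrices of whole UMI counts, which per the file headers come from Cell Ranger 7.2.0; per the submitters' processing notes the build was mm10, and for the annotation release and kit chemistry no source used here has an entry. Barcodes under 200 genes or above 20% mitochondrial UMIs were dropped. Cells of each tissue were clustered in scanpy 1.11.5 on 2000 variable genes without the 35 described ones, with 30 principal components, 20 neighbours and Leiden (leidenalg 0.10.2) resolution 1, and non-blood clusters again with 10 neighbours. Clusters were named from fixed markers that exclude the 35 genes; the rule for ties was chosen after seeing the data. So was the doublet rule: in blood clusters the highest Scrublet scores (0.8% per 1000 barcodes) were removed, and in other clusters barcodes with over 3% of UMIs from 15 leukocyte markers, which took 713, 1083, 60 and 29 barcodes.

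UMI counts were summed per class and library and divided by the class total to give counts per 1000000 (CPM). Ratios are log2 of 1NMPP1 over vehicle CPM with 0.5 UMI added, with exact conditional 95% intervals; a ratio enters medians and counts from 20 UMIs in both libraries together. A difference was counted from 2-fold. With 1 library per group there was no test. All 35 genes are named; of other lists the highest and lowest 2 genes per class could be named, and for likeness the 5 highest correlations. Genes and lists were chosen with earlier results of these data known. The ratio and thinning code was tested on simulated counts. Sequences came from GENCODE M21 on GRCm38 and RefSeq GRCm38.p6, the build named for the files. Levels are compared between classes and libraries, not between genes. A few genes are not reported here. Python 3.11.15, numpy 2.4.6, scipy 1.17.1, pandas 2.3.3, scikit-learn 1.9.0 and matplotlib 3.10.9 were used.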

Additional observations from a re-analysis of the deposited data

Results flagged for a closer look

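Of the 35 genes, 8 differed by 2-fold or more in opposite directions in a pair of cell classes, and no difference between classes was tested. The same count over all genes was not made, so the 8 cannot be read as a trait of the set. Col1a1 had log2 ratios of 1.07 in growth plate stroma, 2.36 in chondrocyte-like cells and 1.22 in non-myelinating Schwann cells against -4.12 in mural cells, where the 1NMPP1 cells held 1 UMI. Col6a1 was at 2.21 in non-myelinating Schwann cells, -1.32 in stroma and -1.55 in mural cells. Col12a1 was at 1.00 in ganglion fibroblasts and -3.31 in non-myelinating Schwann cells, and Postn at 1.40 in non-myelinating Schwann cells and -4.55 in mural cells. The negative values of these 2 genes stand against 0 UMIs and depend on the 0.5 UMI added. Fbn1 was at 1.07 in myelinating Schwann cells and -1.48 in stroma. Runx2 was at 1.46 in stroma and -2.03 in myelinating Schwann cells. Acta2 was at 1.89 in chondrocyte-like cells, from 9 and 18 UMIs, and -5.18 in stroma. Tagln was at 1.82 in non-myelinating Schwann cells, from 16 and 6 UMIs, and -4.95 in stroma.

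Matrix genes were also found in cells outside the compared classes. In the vehicle ganglion library the 10 osteoblast-like barcodes had Bglap at 21950 CPM, of which 1 barcode of 12781 UMIs held 1215 of 1332 UMIs, and the 59 chondrocyte-like barcodes had Ibsp at 8439 CPM and 99.0% of that library's Ibsp. Erythroid cells of the same library had Bglap at 105 CPM. All blood clusters pooled held 415 Bglap UMIs in this library, but 2 in the 1NMPP1 ganglion library, which had no osteoblast-like barcodes. Whether these UMIs came from free RNA was not tested. Ganglion neutrophils had Thbs1 at 1930 and 2173 CPM in the vehicle and 1NMPP1 libraries. Satellite glia had Postn at 322 and 454 CPM.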

How the results depend on the processing

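No paired analysis was possible because each group has 1 library. Of 48 differences of 2-fold or more in the 6 classes, the number that stayed past 2-fold was 48 with 1 UMI added and 48 when scaled to UMIs of other genes, 44 with no doublets removed, 45 at resolution 2, 31 with each cell weighing alike, 30 without the richest barcodes and 10 after thinning to 1000 UMIs, where 30 had no value. Without the richest barcodes 11 had no value, and with each cell weighing alike 2. Within female-called cells 15 stayed, 8 turned and 18 had no value, and within male-called cells these counts were 25, 8 and 11. The causes of the changes were not tested.

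Counts of genes past 2-fold were 19 in stroma, 7 in chondrocyte-like cells, 1 in fibroblasts, 7 in mural, 3 in myelinating and 11 in non-myelinating Schwann cells, and medians 0.20, 0.13, 0.15, -0.74, 0.12 and 0.81. With Scrublet removal in every cluster the count was 4 in chondrocyte-like cells (median -0.13), 0 in fibroblasts and 2 in mural cells, and 5 and 18 genes rather than 8 and 11 had most of their UMIs in stroma (vehicle, 1NMPP1), while 6 rather than 10 passed 100 CPM in vehicle mural cells. Thinning gave 8 in stroma, 3 in chondrocyte-like cells (median 0.38), 0 in mural cells (0.40), 1 in myelinating and 3 in non-myelinating cells, 4 genes mainly in vehicle stroma, and Ibsp with Runx2 in 5.41% rather than 23.7% of 1NMPP1 chondrocyte-like cells. Female-called cells gave 16 in chondrocyte-like cells (median -0.32), 0 in fibroblasts (0.42), 1 in mural cells (0.40), 4 in non-myelinating cells and a myelinating median of 0.72. Their Ibsp with Runx2 share was 28.6% in vehicle chondrocyte-like cells (main 11.2%), Acta2 with Tagln was in 100% of 1NMPP1 mural cells (88.2%), Col1a1 with Bglap in 0% and 25.0% of stroma (27.8% and 58.3%), and 11 genes rather than 7 lay mainly in vehicle fibroblasts. Male-called cells gave 3 in fibroblasts, 6 in non-myelinating cells, medians of -0.57 in stroma and 0.42 in chondrocyte-like cells, Col1a1 with Bglap in 100% of 1NMPP1 stroma, 3 genes mainly in 1NMPP1 stroma, 4 mainly in vehicle fibroblasts, 4 in most vehicle myelinating cells and 4 past 100 CPM in 1NMPP1 myelinating cells. Each cell weighing alike gave 0 in fibroblasts, 6 in myelinating and 7 in non-myelinating cells. A minimum of 5 UMIs gave 2 in fibroblasts, 13 in mural and 6 in myelinating cells, and of 100 UMIs 1 in mural, 1 in myelinating and 4 in non-myelinating cells. Without the richest barcodes the counts were 3 in mural and 4 in non-myelinating cells, and 6 genes passed 100 CPM in vehicle mural cells. Myelinating cells had 1 gene past 2-fold after subtracting the blood level, 1 from barcodes of 5000 UMIs or more, where Acta2 with Tagln reached 78.9% of vehicle mural cells (65.2%), and 7 with the set kept for clustering. At resolution 2 the chondrocyte-like median was 0.40 and Ibsp with Runx2 was in 26.0% of vehicle cells. With a mitochondrial limit of 10% no gene (0) was in most 1NMPP1 non-myelinating cells.

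Turned directions, in chondrocyte-like cells, were Tnc at 2.60 with at least 500 genes per cell, 0.68 with the 10% limit and 1.89 in male-called cells, Col3a1 at 0.46 at resolution 2, Col1a1 at -0.38 and Ibsp at -1.16 with Scrublet throughout, and Col1a1 at -6.58 and Col1a2 at -1.32 in female-called cells. In stroma they were, within male-called cells, Bglap at -4.26, Col1a1 at -0.86, Col1a2 at -0.78, Col6a1 at 0.48, Col6a2 at 0.51, Col6a3 at 0.29 and Smpd3 at -3.66, and within female-called cells Acta2 at 3.47, Tagln at 3.15, Dcn at -0.15, Fbn1 at 0.21, Fn1 at 0.30 and Lum at -0.92. Scrublet throughout, leaving out the richest barcodes and the 5000 UMI limit were chosen after seeing the data. Depth limits Bglap2, Dmp1, Phex and Sp7 in stroma and all bone matrix proteins in ganglion cells.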

Other observations

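Barcodes rich in these genes were counted over all barcodes that passed the gene and mitochondrial filters, whatever their cluster. Col1a1 and Col1a2 together made up 1% of UMIs or more in 32 and 37 growth plate barcodes (vehicle, 1NMPP1) and in 67 and 72 ganglion barcodes. Of the growth plate ones 3 and 9 had been removed as doublets. Bglap and Bglap2 together made up 0.1% or more in 17 and 21 growth plate barcodes, and in 13 barcodes of the vehicle but 0 of the 1NMPP1 ganglion library.

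Several genes of the set were seen where no fibrous or bone cell was named. Growth plate neutrophils had Thbs1 at 764 and 826 CPM. Growth plate monocytes had Fn1 at 1466 and 1613 CPM, and dendritic cells had Runx2 at 829 and 878 CPM, a factor also used in plasmacytoid dendritic cells. Satellite glia held a UMI of Postn in 390 of 580 vehicle and 130 of 184 1NMPP1 cells.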
